A study of Mus musculus with 10 samples.

Results

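Red blood cells and their precursors carry a small group of miRNAs at very high levels. Those described here are miR-451a, the arms of the miR-144 hairpin at the same locus, and the arms of the paired miR-486a and miR-486b hairpins. They were taken by name from the deposited tables of a mouse study of small extracellular vesicles (sEVs, membrane-bound particles that cells release), in which miRNA reads were counted in vesicles of brown adipose tissue (BAT) and of plasma. All 7 names (miR-451a, miR-144-3p, miR-144-5p, miR-486a-5p, miR-486b-5p, miR-486a-3p and miR-486b-3p) are in both tables, among 679 miRNAs listed for BAT and 436 for plasma. The 5p rows of miR-486a and miR-486b hold identical values in every library, and their reads cannot be given to either, so the pair was counted once as miR-486a-5p and 6 members remain.

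The 10 libraries form 4 groups named by the sample titles: Exe BAT (3 libraries), Sed BAT (3), Exe plasma (2) and Sed plasma (2). Every mouse was C57BL/6J, and no gene was altered, as far as the labels say. The design speaks of vesicles before and after exercise, so Exe is read here as trained and Sed as not trained. The labels nevertheless attach the same training (90 min per session, 2 sessions a day, 4 weeks) to all 10 samples, the Sed ones included. Neither the age nor the sex of the mice is given, and nothing says that replicates came from separate animals, so a p-value here reflects the spread among libraries alone, and that spread may be technical. In such bulk vesicle RNA, fewer vesicles from a cell type and less of a miRNA per vesicle cannot be told apart.

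As background, miR-144 and miR-451a are cut from 1 transcript that the factor GATA1 switches on in red cell precursors. The miR-451a hairpin is too short for Dicer and is cut by AGO2 instead, which makes it an exception among miRNAs, and it supports red cell maturation and protects red cells from oxidative stress. miR-144 is made along with it and restrains the oxidative stress factor Nrf2. The miR-486 hairpins lie within Ank1, a gene of red cell and muscle membranes, so miR-486-5p is known from muscle as well as from red cells. Because red cells hold so much miR-451a, red cell breakage during blood collection raises it in plasma, and its ratio to miR-23a-3p, which breakage changes little in human samples, is used as an index of lysis.

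The sequences of miR-144 and miR-451a show that the members from this locus do not share a target-recognising seed. Each mature sequence (RefSeq, GRCm38.p6) is written 5′ to 3′ with the seed, bases 2 to 8, in capitals.
miR-451a: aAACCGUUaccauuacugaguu
miR-144-3p: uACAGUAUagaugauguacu
miR-144-5p: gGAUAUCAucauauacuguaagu
No other mature miRNA in the RefSeq table has any of these 3 seeds, although miR-101a-3p shares bases 2 to 7 with miR-144-3p. The hairpins are shown because they place the mature parts, here in capitals, on the plus strand of chromosome 11.
Mir144 hairpin: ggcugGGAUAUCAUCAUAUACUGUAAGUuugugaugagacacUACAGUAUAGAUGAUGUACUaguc
Mir451a hairpin: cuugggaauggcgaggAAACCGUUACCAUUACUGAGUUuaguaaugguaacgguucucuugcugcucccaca
The Mir144 hairpin spans 78073005 to 78073070 (66 bases) and yields a 5p and a 3p arm. The Mir451a hairpin spans 78073170 to 78073241 (72 bases), with 99 bases between them. Its mature form runs from base 17 to base 38 of the hairpin, into the loop. GENCODE M21 places Mir451b on the opposite strand of the same 72 bases, and the protein-coding gene Eral1 lies on that opposite strand from 78073376 onwards. Of the 7 names, 3 matched the RefSeq table.

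The plasma libraries yielded far more miRNA reads than the BAT libraries, which sets how well rare members could be read. With the shared miR-486 arm counted once, miRNA reads totalled 116554 to 172220 in Exe BAT, 103953 to 169294 in Sed BAT, 1192106 and 1751116 in Exe plasma, and 1339445 and 1798054 in Sed plasma. A count of 0 in the shallowest library allows a share of up to 0.00289%, and in the deepest up to 0.000167% (3 reads of the total). Brown fat miRNAs (6 names) took 23.0% to 30.1% of Exe BAT reads and 6.70% to 23.3% of Sed BAT reads, against 0.0267% to 0.151% in Exe plasma and 0.157% to 0.502% in Sed plasma. Sed BAT replicate 2 set the low end of that list and stood apart from the other BAT libraries. In Exe plasma miR-193a-3p and miR-193b-3p were at 0 reads.

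In BAT vesicles miR-451a was one of the most abundant miRNAs and did not differ detectably between the groups. It had 3969, 5528 and 12100 reads in the Exe libraries, against 10223, 3901 and 3883 in the Sed libraries. These are 3.41%, 3.48% and 7.03% of Exe reads and 6.04%, 3.75% and 3.35% of Sed reads. In each group 1 library, Exe replicate 3 or Sed replicate 1, stood above the others, and the groups overlapped. Its rank by abundance was 5 in each BAT library except Sed replicate 2, where it was 9.

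The mean share of miR-451a was 4.64% ± 2.07 in Exe BAT and 4.38% ± 1.45 in Sed BAT (SD, n = 3 each). A two-sided exact permutation test gave p = 0.8, and could give 0.1 at the lowest. On the scale of edgeR's quasi-likelihood test, the log2 fold change of Exe over Sed was 0.17 ± 0.42 (SE, adjusted p = 0.782). With 1 library left out the log2 fold change lay between -0.18 and 0.61, and it was below 0 without Exe replicate 3. The authors' RPM values, scaled to all reads of a library and not to miRNA reads alone, were 209.7, 284.8 and 635.2 in Exe BAT and 500.8, 184.4 and 189.0 in Sed BAT, in the same order of libraries.

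Its transcript partner was far scarcer in BAT vesicles. miR-144-3p had 26, 34 and 133 reads in Exe BAT, against 162, 15 and 81 in Sed BAT. The highest library of each group was the one in which miR-451a was also highest, and the groups overlapped. Its log2 fold change was -0.54 ± 0.82 (SE, edgeR adjusted p = 0.669), and 0.05 without Sed replicate 1. miR-144-5p, the other arm of that hairpin, had 2, 1 and 3 reads in Exe BAT and 6, 3 and 0 in Sed BAT. These reads are too few for the test's filter, and the pooled ratio of Exe over Sed was 0.58 (exact 95% counting interval 0.17 to 1.82), or 0.41 to 0.98 with 1 library left out.

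Within 1 library, miR-451a outnumbered the reads of both miR-144 arms by 142-fold, 158-fold and 89.0-fold in Exe BAT, and by 60.9-fold, 217-fold and 47.9-fold in Sed BAT. The order of the libraries differed between the groups, and the ratio did not separate them (exact permutation p = 0.5 on the log2 ratio, n = 3 each, two-sided). Such within-library ratios do not depend on the scaling of the library.

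**Figure D1:**
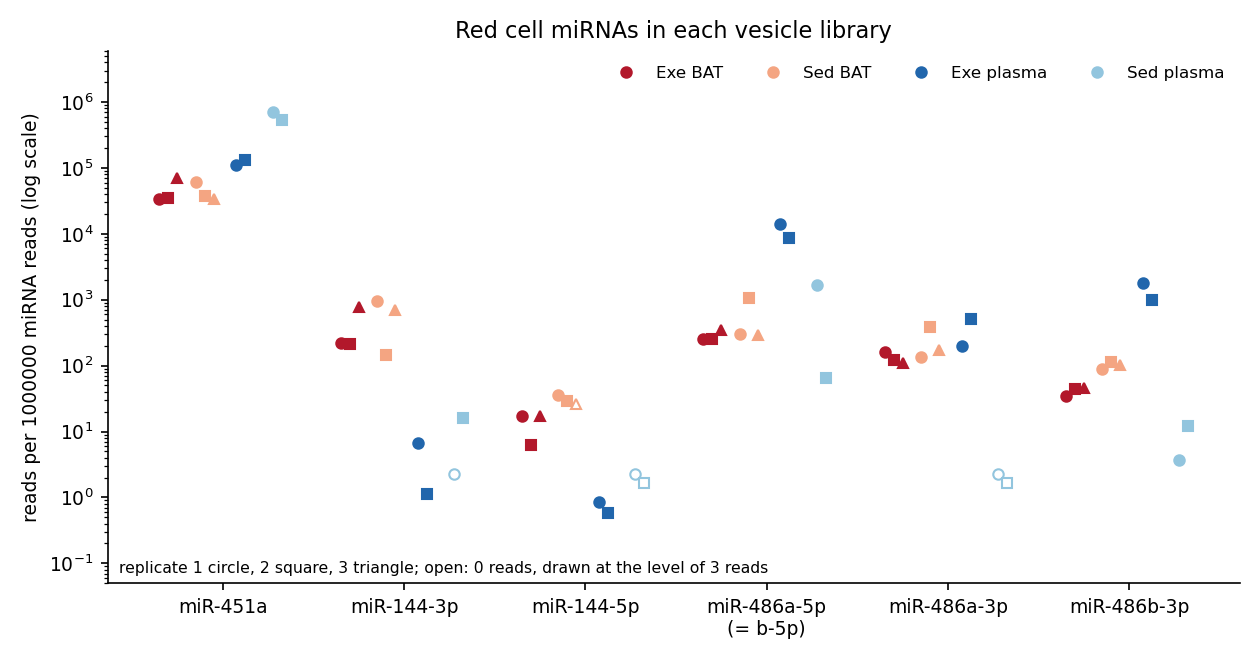
Reads of each red cell miRNA per 1000000 miRNA reads (log scale) in the 10 vesicle libraries, 1 point per library, with Exe left of Sed within each source and open points for 0 reads drawn at the level of 3 reads. miR-451a is highest in Sed plasma, miR-144-3p is higher in each BAT library than in any plasma library, and the miR-486 arms are higher in Exe plasma than in Sed plasma.

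The miR-486 arms were low in BAT vesicles, and all were lower on average in Exe. The shared 5p arm had 30, 40 and 59 reads in Exe BAT, against 51, 111 and 34 in Sed BAT. Sed replicate 2, the library that stood apart, held the 111 reads, and the groups overlapped. The log2 fold change was -0.71 ± 0.40 (SE, edgeR adjusted p = 0.205), and -0.01 to -0.95 with 1 library left out, where the value nearest 0 came without Sed replicate 2.

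miR-486a-3p had 19 reads in each of the 3 Exe BAT libraries and 23, 40 and 20 in the Sed BAT libraries (log2 fold change -0.63 ± 0.35, SE, edgeR adjusted p = 0.205). miR-486b-3p had 4, 7 and 8 reads in Exe BAT, against 15, 12 and 12 in Sed BAT. Its read counts did not overlap between the groups. Its log2 fold change of -1.13 ± 0.36 passed edgeR's test with an adjusted p of 0.0476. However, miR-486b-3p passed the filter through its Sed reads alone, as every Exe BAT library lay below the filter's level. Its entry among the tested miRNAs thus already required a difference and fixed the lack of overlap. Its call and its lack of overlap are therefore a description only. It was the only member of the 5 tested to pass in BAT vesicles, where 22.6% of 199 tested miRNAs passed (13.1% downward) and 44.2% had groups that did not overlap. The call was lost whenever any 1 library was left out (adjusted p 0.0800 to 0.160), with DESeq2 (0.162), with limma-voom (0.0567), with upper-quartile factors (0.0856), with no filter (0.195) and with the library totals that RPM implies (0.232).

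As known from miRNA catalogues, the 3p arms of miR-486a and miR-486b are near-identical in sequence, so how reads were split between their rows depends on counting rules, and these are unknown here. Summed, they had 23, 26 and 27 reads in Exe BAT and 38, 52 and 32 in Sed BAT, and still did not overlap. The summed row had a log2 fold change of -0.78 ± 0.29 and no longer passed edgeR's test (adjusted p = 0.0742). The median log2 fold change of the 5 tested members in BAT was -0.63, against -0.06 over all tested miRNAs.

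Plasma vesicles held the group's largest differences, and the members split into opposite directions there. miR-451a had 134144 and 232086 reads in Exe plasma, against 936594 and 948848 in Sed plasma. This was 11.3% and 13.3% of the Exe reads, where it was the second most abundant miRNA, and 69.9% and 52.8% of the Sed reads, where it was the first. The groups lay far apart, with both Exe shares well below both Sed shares.

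The mean share was 12.3% ± 1.41 in Exe plasma and 61.3% ± 12.1 in Sed plasma (SD, n = 2 each), 5.01-fold lower in Exe. An exact permutation test gave p = 0.33 (two-sided), which is the smallest that n = 2 each allows. The log2 fold change was -3.03 ± 0.57 (SE), at rank 3 by p among 182 tested miRNAs, and its adjusted p of 0.0899 missed the threshold of 0.05 in edgeR's test. In plasma that test called 0 of the 5 tested members and 0% of the 182 tested miRNAs, with 60 miRNAs (33%) at an unadjusted p under 0.05. DESeq2 called 32.4% of the same miRNAs and limma-voom 22%, each with miR-451a, miR-486a-3p and miR-486b-3p among them. The value of miR-451a lay between -3.89 and -2.12 under every other setting and with each library left out, and passed in most of them.

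The plasma table holds a second whole number beside each read count, never above it, made in a way that no label states. It may be a count of distinct reads or of molecules. By this value miR-451a stood at 67348 and 85446 in Exe plasma, against 122632 and 32689 in Sed plasma. Its share of the second values was 7.98% and 8.02% in Exe and 30.4% and 38.9% in Sed, so the direction held and the difference was smaller. Reads per unit of the second value were 1.99 and 2.72 for miR-451a in Exe plasma and 7.64 and 29.0 in Sed plasma. Over all miRNAs the same quotient was 1.41 and 1.64 in Exe plasma and 3.32 and 21.4 in Sed plasma, highest in Sed replicate 2. With these values in edgeR's test, the log2 fold change was -2.15 and passed (adjusted p = 6.35e-11), as did 6.71% of the 164 tested miRNAs. With DESeq2 on the second values miR-451a did not pass (adjusted p = 0.110).

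**Figure D2:**
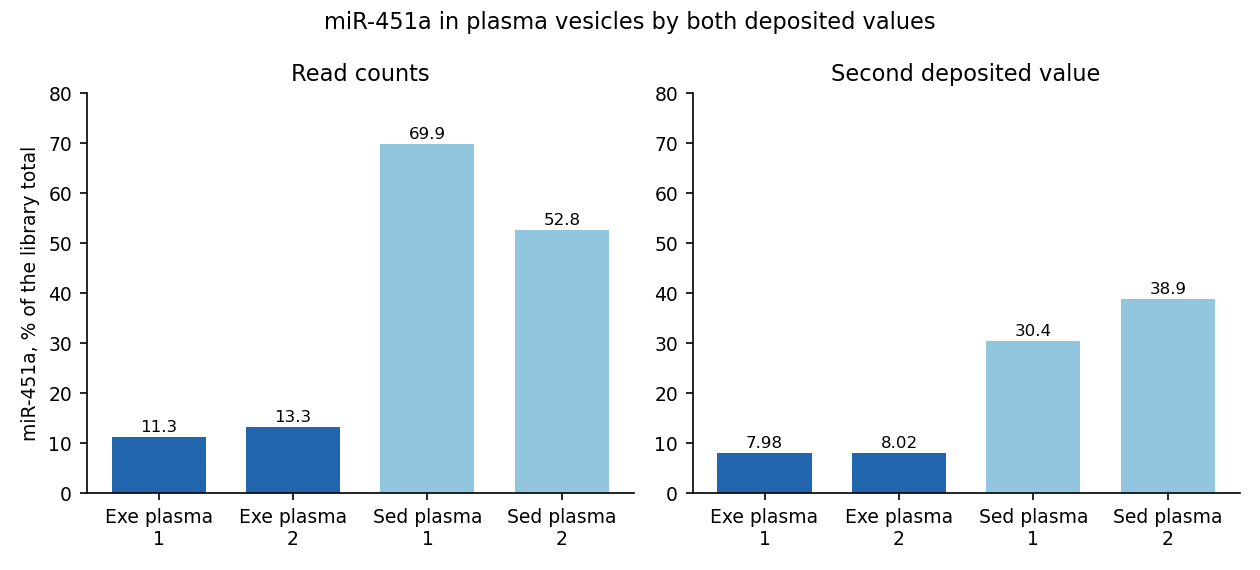
Share of miR-451a in each plasma library, as % of the library total, by read counts (left) and by the second deposited value (right), with 1 bar per library. The Exe bars stand at 11.3% and 13.3% of reads and at 7.98% and 8.02% of second values, below both Sed bars in each panel.

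The miR-144 arms were almost missing from plasma reads, even in the libraries led by miR-451a. miR-144-3p had 8 and 2 reads in Exe plasma, against 0 and 29 in Sed plasma, and the groups overlapped. Its log2 fold change was -1.57 ± 1.91 (SE, edgeR adjusted p = 0.591), and 0.42 with limma-voom. miR-144-5p had 1 read in each Exe plasma library and 0 in both Sed libraries, too few to test.

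Reads of miR-451a per read of either miR-144 arm were 14905 and 77362 in Exe plasma and 32719 in Sed plasma replicate 2. Sed plasma replicate 1 had 936594 reads of miR-451a and 0 of miR-144, which puts the quotient at 312198 or more when 3 reads are taken as the floor. Such floors and intervals allow for counting error alone, because PCR copies of 1 molecule are not independent reads.

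The miR-486 arms went the other way in plasma. The shared 5p arm had 17010 and 14954 reads in Exe plasma, against 2233 and 115 in Sed plasma. The Exe libraries were close to each other, the Sed libraries differed widely, and the groups did not overlap. As a share of reads it averaged 1.14% ± 0.405 in Exe plasma and 0.0866% ± 0.113 in Sed plasma (SD, n = 2 each), 13.2-fold higher in Exe (exact permutation p = 0.33, two-sided, the smallest possible). With miR-451a left out of the total, the share was 1.61% and 0.984% in Exe plasma, against 0.554% and 0.0135% in Sed plasma, and the ratio of the means was 4.56 in place of 13.2.

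On the edgeR scale the shared 5p arm was at 2.72 ± 1.58 (log2 fold change and SE, adjusted p = 0.279). It depended on 1 library: without Sed plasma replicate 1 the value was 7.14 and passed (adjusted p = 4.98e-07). By the second deposited value it stood at 14754 and 13274 in Exe plasma and at 1852 and 13 in Sed plasma.

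Both 3p arms were low in Sed plasma. miR-486b-3p had 2106 and 1759 reads in Exe plasma, against 5 and 22 in Sed plasma. Its log2 fold change was 6.83 ± 1.88 (SE, edgeR adjusted p = 0.0899), and the pooled ratio of Exe over Sed was 153 (exact 95% counting interval 105 to 232). The spread between libraries is wider than that interval: the ratio was 352 without Sed plasma replicate 2 and 107 without Sed plasma replicate 1. miR-486a-3p had 237 and 892 reads in Exe plasma and 0 in both Sed plasma libraries, at least 401-fold higher in Exe against a floor of 3 reads over the group. With 1 library left out that bound lay between 171-fold and 533-fold. It passed the filter through its Exe reads alone, so its entry among the tested miRNAs already required a difference, and its fitted log2 fold change of 11.90 ± 3.11 (adjusted p = 0.0899) depends on the prior count and is no bound. Of the 5 tested members 4 had groups that did not overlap in plasma, against 59.3% of all tested miRNAs. miR-486a-3p is 1 of these 4, and with 0 Sed reads its passing the filter already fixed that outcome. The count is a description only.

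Summed over both 3p rows, there were 2343 and 2651 reads in Exe plasma, against 5 and 22 in Sed plasma. The summed row had a log2 fold change of 7.19 ± 1.75 (SE, edgeR adjusted p = 0.0933). Its Sed reads are those of miR-486b-3p alone, so it too needed its Exe reads to pass the filter. The miR-486a-3p row held 82.6%, 73.1% and 70.4% of these 3p reads in Exe BAT and 60.5%, 76.9% and 62.5% in Sed BAT, but 10.1% and 33.6% in Exe plasma and 0% in both Sed plasma libraries. The row that leads was thus miR-486a-3p in each of the 6 BAT libraries and miR-486b-3p in each of the 4 plasma libraries. This balance was noticed after the values were seen and was not tested, and it is the quantity most exposed to how near-identical reads were assigned.

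**Figure D3:**
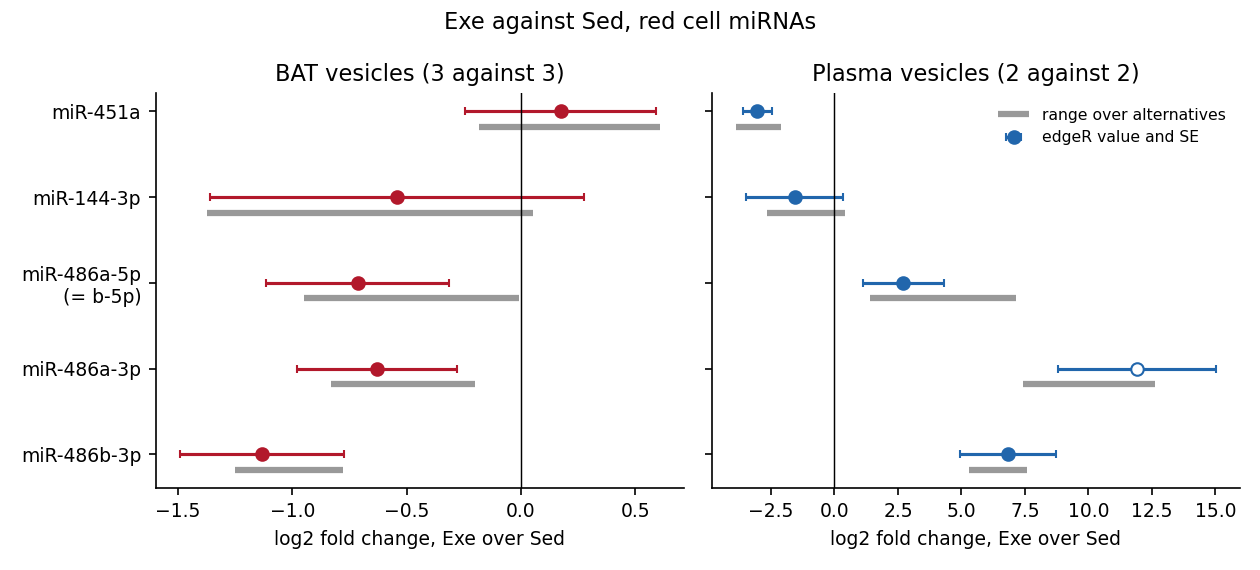
Log2 fold change of Exe over Sed for the 5 tested members in BAT vesicles (left) and plasma vesicles (right), with SE bars, and grey bars for the range over other settings and left-out libraries, on different horizontal scales. In plasma miR-451a lies at -3.03 and miR-486b-3p at 6.83, while the open point of miR-486a-3p marks a fit against 0 Sed reads. The miR-486b-3p range includes the fit with both 3p rows summed.

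Because all members are counted in the same library, their ratios show the split directly. The log2 ratio of miR-486a-5p over miR-451a was -2.98 and -3.96 in Exe plasma, against -8.71 and -13.01 in Sed plasma. In BAT vesicles it was -7.05, -7.11 and -7.68 in Exe and -7.65, -5.14 and -6.84 in Sed. The Exe plasma libraries had the highest ratios of the series and the Sed plasma libraries the lowest, and the BAT libraries of both groups lay between. The mean difference in plasma was 7.39 log2 units (exact permutation p = 0.33, n = 2 each, two-sided, the smallest possible), and that in BAT was -0.74 (exact permutation p = 0.4, n = 3 each). Neither the 16 shares nor the 9 ratios tested gave a Benjamini-Hochberg adjusted p below 0.533.

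The 3p arms of miR-486 per 5p read gave log2 ratios of -0.38, -0.62 and -1.13 in Exe BAT and -0.42, -1.09 and -0.09 in Sed BAT. In plasma they were -2.86 and -2.50 in Exe, and -8.80 and -2.39 in Sed. The low value is that of Sed plasma replicate 1, which had 2233 reads of the 5p arm and 5 of both 3p rows, and the groups overlapped.

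The lysis index compared miR-451a with miR-23a-3p, a miRNA of endothelial and other cells. In plasma the log2 ratio was 1.88 and 2.80 in Exe, against 9.91 and 6.43 in Sed, a mean difference of -5.83 (exact permutation p = 0.33, n = 2 each, two-sided, the smallest possible). Both sides of the ratio moved: miR-23a-3p had 36508 and 33325 reads in Exe plasma, against 975 and 11005 in Sed plasma. By the second values the mean difference was -5.30. In BAT vesicles the ratio was 1.19, 1.38 and 2.26 in Exe and 2.32, 2.35 and 2.12 in Sed (exact permutation p = 0.2, n = 3 each), so the Exe plasma libraries fell near the BAT range and the Sed plasma libraries far above it. Whether red cells broke during collection was not tested, and the labels describe no haemolysis measurement.

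Set against miR-16-5p, another miRNA that red cells hold in quantity, miR-451a was also higher in Sed plasma. That log2 ratio was 2.41 and 1.68 in Exe plasma, against 4.38 and 4.18 in Sed plasma, a mean difference of -2.24 by reads and -1.65 by second values. In BAT vesicles it was 0.86, 0.62 and 1.56 in Exe and 1.40, -0.23 and 0.22 in Sed, with groups that overlapped.

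**Figure D4:**
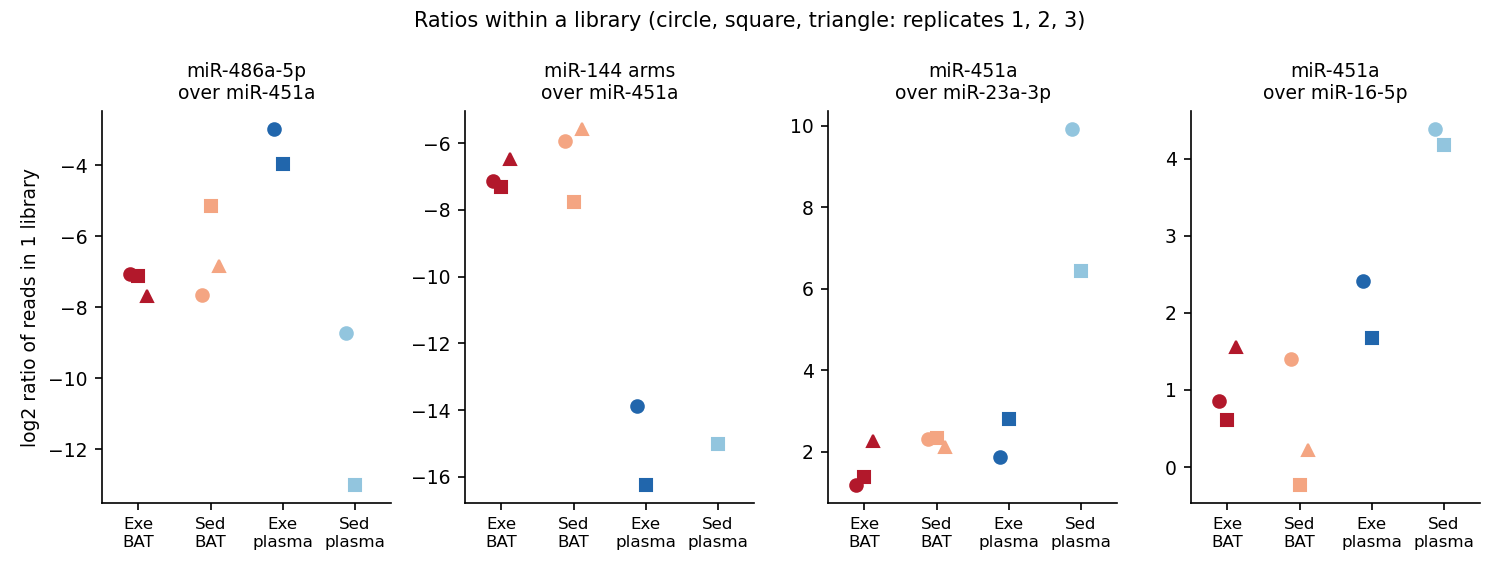
Log2 ratios of reads counted in the same library, 1 point per library and 1 panel per ratio, with Exe left of Sed within each source. Sed plasma has the highest ratios of miR-451a to miR-23a-3p (9.91 and 6.43) and the lowest of miR-486a-5p to miR-451a (-8.71 and -13.01), and Sed plasma replicate 1, at 0 miR-144 reads, has no point in the miR-144 panel.

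Other miRNAs that red cells hold were described from a list of 14 names that excludes the members. Their summed share was 2.60% to 3.03% in Exe BAT and 3.09% to 5.76% in Sed BAT, while in plasma it was 6.52% to 12.1% in Exe and 3.46% to 3.91% in Sed. In plasma the higher share of all reads in Exe rested on miR-25-3p, at 3.10% and 7.00% of Exe reads and 0.187% and 0.279% of Sed reads. Without it the list took 3.43% and 5.06% of all reads in Exe plasma and 3.72% and 3.18% in Sed plasma, and these shares overlapped. These plasma shares depend on miR-451a, which filled 69.9% and 52.8% of the Sed totals and 11.3% and 13.3% of the Exe totals. The list's share with miR-451a left out of the total was not computed. Whether the list, with or without miR-25-3p, was higher, lower or unchanged in Exe relative to the remaining miRNAs is therefore not shown. The overlap without miR-25-3p does not show that the other listed miRNAs were alike in the 2 groups. In BAT vesicles 1 of 12 tested fell and 0 rose: miR-96-5p, of the miR-183 cluster that red cells share with sensory cells, had a value of -1.94 ± 0.30 on the log2 scale (SE, edgeR adjusted p = 0.00471). The list's median was -0.45, against -0.06 over all tested miRNAs.

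In plasma 0 of 10 on the list passed. The value of miR-25-3p, an abundant red cell miRNA, was 3.90 ± 0.79 (SE, edgeR adjusted p = 0.0899), and that of miR-92a-3p was 2.08. On the other side miR-96-5p was at -6.29 and miR-20a-5p at -6.18. The list's median was -0.56, against 0.32 over all tested miRNAs, and 6 of the 10 lay below 0. That overall median is unstable in plasma, between -1.76 and 2.12 with 1 library left out.

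**Figure D5:**
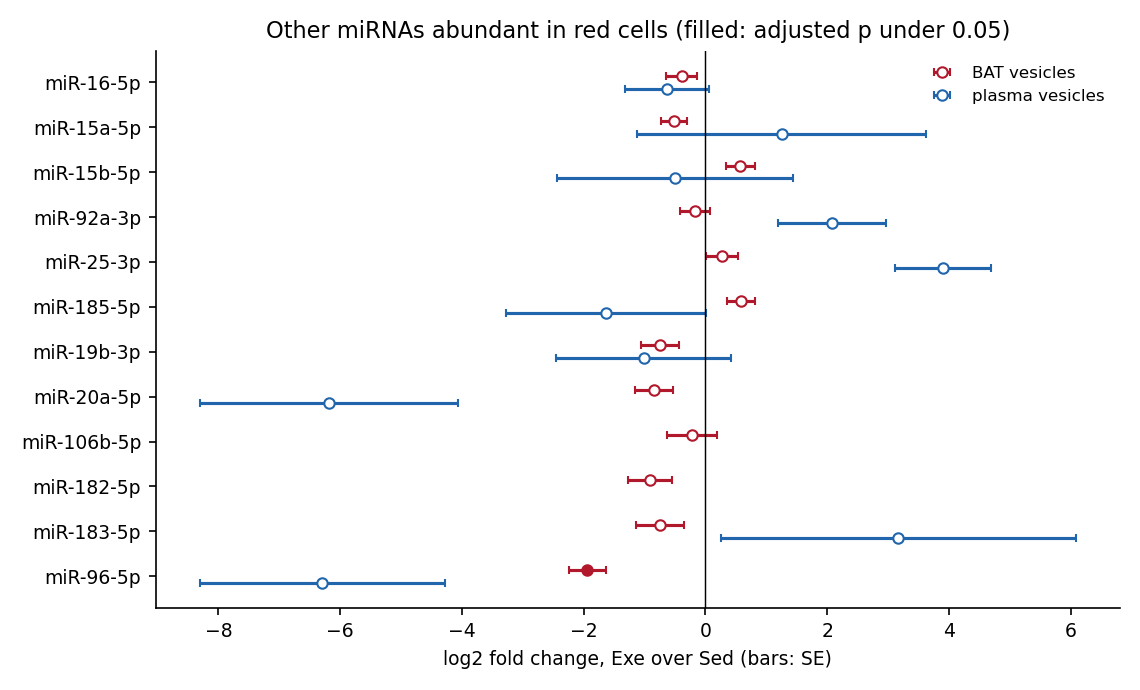
Log2 fold changes of Exe over Sed, with SE bars, for the other listed red cell miRNAs in BAT and plasma vesicles, where a filled point marks an adjusted p under 0.05. In plasma miR-25-3p (3.90) and miR-92a-3p (2.08) lie right of 0 and miR-96-5p (-6.29) and miR-20a-5p (-6.18) left of it, and the 1 filled point is miR-96-5p in BAT.

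Of the markers of other sources, the leukocyte list (higher in Exe) and the brown fat list (lower in Exe) separated the plasma groups by share. The muscle, endothelial and platelet, and liver lists overlapped. Leukocyte miRNAs (7 of 7 listed) took 3.67% to 3.68% of Exe plasma reads and 1.10% to 1.39% of Sed plasma reads. These plasma shares are of totals that include miR-451a, which filled far more of the Sed totals. The leukocyte separation thus does not show a rise relative to the remaining miRNAs. Muscle miRNAs, of interest for miR-486, are listed for 4 of 7 names in plasma and took 0.568% to 0.692% in Exe and 0.207% to 0.651% in Sed. Endothelial and platelet miRNAs (4 names) took 5.16% to 6.83% in Exe and 4.82% to 8.19% in Sed, and liver miRNAs (3 names) 4.10% to 4.16% in Exe and 1.88% to 6.62% in Sed. In BAT vesicles muscle miRNAs took 2.51% to 3.57% in Exe and 2.99% to 5.61% in Sed, with miR-208a-3p at 0 in Sed, and leukocyte miRNAs 0.916% to 1.32% in Exe and 0.899% to 1.23% in Sed. Their part in the members' values was not tested.

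Between the vesicle sources, BAT was compared with plasma in edgeR, over the miRNAs that both tables list and with all 4 groups in 1 model. Source, table and any sequencing run cannot be told apart in it, and the depths differ. Among Exe libraries all 5 tested members passed, 1 higher and 4 lower in BAT, against 66.7% of 234 tested miRNAs (41% higher, 25.6% lower). miR-144-3p was higher in BAT (log2 fold change 5.21 ± 1.88, SE, adjusted p = 0.0310), with 193 reads of 447529 pooled over Exe BAT and 10 of 2943222 over Exe plasma, a pooled ratio of 127 (exact 95% counting interval 67.5 to 269). That ratio was 378 without Exe plasma replicate 1, 64.3 without Exe plasma replicate 2 and 64.1 without Exe BAT replicate 3. Lower in BAT were miR-451a (-2.78 ± 0.43, adjusted p = 0.000714), miR-486a-5p (-6.76 ± 1.18, adjusted p = 0.00120), miR-486b-3p (-6.49 ± 0.89, adjusted p = 0.000321) and miR-486a-3p (-2.78 ± 0.82, adjusted p = 0.0141). The calls of miR-144-3p and miR-486a-3p were lost without Exe plasma replicate 2 (adjusted p 0.0806 and 0.0575), and that of miR-486a-3p also without Exe BAT replicate 2 (0.0564) or 3 (0.0613). The call of miR-486a-3p was lost too with upper-quartile factors (-1.80, adjusted p = 0.0835), library size alone (-1.40, 0.174) and a minimum mean of 50 counts (-1.64, 0.112).

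Among Sed libraries 3 of the 5 passed, 1 higher and 2 lower in BAT, against 42.3% of the tested miRNAs (22.2% higher, 20.1% lower). miR-451a was lower in BAT by the smallest p of all 234 (-6.39 ± 0.49, SE, adjusted p = 1.75e-05). miR-486a-3p was higher in BAT, with 83 pooled reads against 0 in plasma, at least 223-fold by the floor of 3 reads over the group (fitted adjusted p = 0.00121), and at least 95.2-fold to 285-fold with 1 library left out. miR-486a-5p was lower in BAT (-3.28 ± 1.03, adjusted p = 0.0252), but the value was 0.39 without Sed plasma replicate 1. Its call was also lost without Sed BAT replicate 1 (adjusted p = 0.105) or 3 (0.0875) or Exe BAT replicate 3 (0.0562), with limma-voom (-2.02, 0.291), with a minimum mean of 50 counts (-2.74, 0.0618) and with library size alone (-0.63, 0.598). miR-144-3p was at 3.59 ± 1.71 (adjusted p = 0.121), with 258 reads of 389297 in Sed BAT and 29 of 3137499 in Sed plasma, a pooled ratio of 71.7 (exact 95% counting interval 48.7 to 109). Without Sed plasma replicate 1 that ratio was 41.1, without Sed BAT replicate 1 it was 47.2, and without Sed plasma replicate 2, which held all 29 plasma reads, it was at least 296. miR-144-3p passed with DESeq2 (4.41, adjusted p = 0.00287), library size alone (6.18, 0.0154) and limma-voom (5.13, 0.0341), and without Sed plasma replicate 2 (10.30, 0.0211, a fit against 0 reads). miR-486b-3p was at 1.01 ± 0.81 (adjusted p = 0.318). It passed with DESeq2 (1.52, adjusted p = 0.0170), library size alone (3.65, 0.00630) and a minimum mean of 50 counts (2.02, 0.0378), and without Sed plasma replicate 2 (2.39, 0.0274), and the summed 3p rows were at 2.67 ± 0.80 and passed (adjusted p = 0.0205).

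Whether Exe differed from Sed by different amounts in the 2 sources was asked as a difference of effects in the same fit, BAT minus plasma. Of the 5 tested members 3 passed, 1 above and 2 below 0, against 29.1% of the 234 tested miRNAs (16.7% above, 12.4% below). Spread in this fit is estimated from all 10 libraries, not from the plasma libraries alone. miR-451a gave 3.61 ± 0.62 (SE, adjusted p = 0.00311), from 0.17 in BAT and -3.03 in plasma when each source was fitted alone. miR-486b-3p gave -7.50 ± 1.24 (adjusted p = 0.00264), and the summed 3p rows -7.61 ± 1.14 (adjusted p = 0.00271). The fitted value of miR-486a-3p, whose Sed plasma libraries are at 0, was -11.48 ± 1.63 (adjusted p = 0.00264). miR-486a-5p was at -3.48 ± 1.47 (adjusted p = 0.0945) and miR-144-3p at 1.61 ± 2.10 (adjusted p = 0.545). The median over the 5 tested members was -3.48, against 0.57 over all tested miRNAs.

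Across the 6 BAT libraries, the miRNAs whose log2 CPM profile, centred on its own mean, lay closest to that of miR-451a were miR-140-5p, miR-100-5p and miR-143-3p, with root mean square differences of 0.25, 0.26 and 0.30 log2 units. Over all 193 miRNAs compared the median was 0.69. For miR-486a-5p the closest were miR-24-2-5p, let-7d-5p and miR-107-5p, at 0.33, 0.34 and 0.34 log2 units against a median of 0.72.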

How the data were processed

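The authors deposited read counts per mature miRNA and library in 1 table per vesicle source, per the file headers. The BAT table also holds RPM, which the authors scaled to library totals larger than the miRNA reads, as the deposited values show. Bowtie 0.12.2 is named in the submitters' processing notes, with counting rules not given in the sources used here. Read counts were tested as deposited with edgeR 4.0.16 (quasi-likelihood, TMM scaling, filterByExpr, robust dispersions) in R 4.3.3, with Benjamini-Hochberg adjustment over all tested miRNAs and 0.05 as the threshold. The SE is the log2 fold change over the square root of F. Alternatives used DESeq2 1.42.0 and limma 3.58.1 (voom), other scalings and filters, the second plasma values and left-out libraries, and the tests were tried on simulated data. Shares, ratios and exact permutation tests used Python 3.11.15 and scipy 1.17.1. The members and lists were chosen with earlier results of these data known. Named miRNAs are all members, the listed red cell miRNAs past the threshold or among the 4 of smallest p, and the 3 nearest profiles. Also named are miR-16-5p and miR-23a-3p, to which miR-451a is compared, and markers at 0 reads.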

Additional observations from a re-analysis of the deposited data

Results flagged for a closer look

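The Exe against Sed effect differed between BAT and plasma vesicles for 3 members, by the difference of effects in edgeR's joint fit (BAT minus plasma). Of all 234 tested miRNAs 29.1% passed there. In edgeR's test of plasma alone none of the 3 passed (adjusted p = 0.0899 each). The joint fit estimates spread from all 10 libraries, so its p-values do not rest on the plasma spread alone. For miR-451a it was 3.61 on the log2 scale (adjusted p = 0.00311), and it lay between 2.98 and 3.88 with any 1 library left out. For miR-486b-3p it was -7.50 (adjusted p = 0.00264), and between -8.72 and -6.79 with 1 library left out. For miR-486a-3p the fitted value was -11.48 (adjusted p = 0.00264), which rests on 0 reads in both Sed plasma libraries and depends on the prior count. All 3 passed under each setting tried, with adjusted p-values of at most 0.0243, 0.0193 and 0.0164 in that order of miRNAs. Source and table cannot be told apart.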

How the results depend on the processing

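Counts of miRNAs past the threshold depended on the setting. In BAT vesicles edgeR's 45 became 21 under a minimum mean of 50 counts and 16 to 56 with 1 library left out. In plasma its 0 became 59 with DESeq2, 40 with limma-voom, 10 with library size alone, 4 with upper-quartile factors, 29 under a minimum mean of 50 counts, 17 with no filter and 3 to 27 with 1 library left out, with the lone library of its group assumed to vary like the others. On the second plasma values it was 11, with limma-voom 10 and with DESeq2 33. The limma-voom and DESeq2 runs on these values, and their use in the joint fit of both sources, were chosen after seeing the data. BAT against plasma gave 156 among Exe libraries, which became 82 under a minimum mean of 50 counts and 131 to 205 with 1 library left out. Among Sed libraries it gave 99, which became 150 with DESeq2, 152 with library size alone and 77 to 149 with 1 library left out. The difference of effects gave 68, which became 44 on the second plasma values and 36 to 119 with 1 library left out. Whether replicate numbers pair the samples could not be decided. In BAT, same-numbered Exe and Sed libraries deviated from their group means with correlations of 0.00425, -0.0833 and -0.12. Not every BAT library correlated best with its own number. In plasma, same-numbered libraries gave -0.0755 and differently numbered ones 0.0755. These are 1 value with its sign changed, because deviations from the group mean mirror each other there. With so few libraries a group, the check cannot exclude pairing. With the replicate block the counts were 25 in BAT, 7 in plasma and 34 for the difference of effects, and miR-451a in plasma was at -2.99 (adjusted p = 0.000522).

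The log2 fold change of miR-451a in plasma was below 0 under each setting and passed with DESeq2 (-3.15), without a filter (-2.93), with upper-quartile factors (-3.89), library size alone (-2.33), limma-voom (-2.98), a minimum mean of 50 counts (-3.27), the second values (-2.15), limma-voom on these (-2.12) and each library left out (-3.46 to -2.34). It missed the threshold with the members left out of the totals (adjusted p = 0.0914), with identical miRNAs counted once (0.0875), with both miR-486 3p rows summed, also chosen after seeing the data (0.0932), and with DESeq2 on the second values (0.110). In BAT its value was -0.18 without Exe replicate 3 and up to 0.61 with another library left out. The summed share of the members, 47.9 percentage points lower in Exe plasma by reads, differed by -25.1 points on the second values, and by -56.5 to -39.2 with 1 library left out. Values that changed sign were those of miR-144-3p in BAT without Sed replicate 1 (0.052, and down to -1.37 with another library left out), in plasma with limma-voom (0.42), and for the difference of effects with limma-voom (-0.027) or without Sed plasma replicate 2 (-4.92, and up to 3.41 with another left out). The value of miR-486a-5p in BAT against plasma among Sed libraries also changed sign, at 0.39 without Sed plasma replicate 1 and down to -4.02 with another left out. The cause was not tested. Scaling moved the median of all miRNAs by 0.14 (upper-quartile factors), -0.13 (library size alone) and 0.19 (totals implied by RPM) in BAT, and by -0.91 and 0.63 in plasma with the first and second of these. In plasma that median was 0.32, but -0.90 with no filter, 1.74 under a minimum mean of 50 counts and -0.10 with limma-voom. With the replicate block the calls of miR-486b-3p in BAT (adjusted p = 0.0932), of miR-144-3p (0.0914) and miR-486a-3p (0.0745) in BAT against plasma among Exe libraries, and of miR-486a-5p among Sed libraries (0.184) were lost. With 2 plasma libraries a group and at most 40 reads of miR-144-5p or a miR-486 3p row in a BAT library, depth limits what can be said of these arms.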
